A study of Mus musculus with 2 samples.

Results

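The CPEB family was examined in Neuro2a cells after knockdown of one of its members. The family was taken as the 4 genes Cpeb1, Cpeb2, Cpeb3 and Cpeb4, and every probe set (a group of probes read together as 1 value) whose annotation gives only one of these symbols was included, whatever its signal. This gave 11 of the 45037 probe sets on the array that are not controls, namely 1 for Cpeb1, 3 for Cpeb2, 4 for Cpeb3 and 3 for Cpeb4. Neuro2a is a mouse neuroblastoma line, and the cells were transfected for 24 h with a control siRNA (siControl) or with a Stealth siRNA against the coding region of the Cpeb1 mRNA (siCPEB1). Each condition has 1 Affymetrix Mouse Genome 430 2.0 array, prepared from 100 ng of total RNA. Both cultures therefore share the line, the medium and the transfection reagent, and they differ in the siRNA. Without replicates no test was possible, and each value compares these 2 cultures.

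CPEB proteins bind mRNA through paired RNA recognition motifs and a zinc-binding domain at their C-terminal end. CPEB1, the founding member, recognises the cytoplasmic polyadenylation element (CPE), a U-rich element with the consensus UUUUAU in the 3-prime untranslated region. Bound CPEB1 keeps the poly(A) tail short and translation low until it is phosphorylated, after which the tail is lengthened and the mRNA is translated. CPEB2, CPEB3 and CPEB4 resemble each other more than they resemble CPEB1, and in neurons the family is known for local translation in dendrites and at synapses. The study asked how loss of CPEB1 alters gene expression, and the arrays show what happened to the mRNAs of the other members and of the proteins they work with.

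The study mutated CPEs of the Fmr1 mRNA with the oligonucleotides that follow, 5-prime to 3-prime. They carry the mutant form, which lacks the intact consensus, and are shown for the sequence around each element. Capitals mark the 2 bases of each mutant that the study's oligonucleotide list sets apart.
CPE mut 1: caggattttacttttGCttt
CPE mut 2: gtgccttttttGCatcttgg
CPE mut 3: gattggattttGCgttgaca
CPE mut 4: gatgtaaatttttGCtaaaaagttg
A run of T lies directly before the changed bases in all 4. The study's PCR primers for CPEB1 are also shown, because the array reads Cpeb1 with 1 probe set alone and the primers belong to a separate assay of the same mRNA.
CPEB1 forward: aagaaggttcagattgaccc
CPEB1 reverse: aagtacttgaagcagacctg
The positions of these oligonucleotides in the genome were not determined here.

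Signals are MAS5 intensities on a linear scale, with a median over the array of 21.0 in siControl and 21.6 in siCPEB1. The log2 ratio is siCPEB1 over siControl after the medians of the arrays were set equal, which lowers every plain ratio by 0.0402. Differences of more than 2-fold were counted among the 23655 probe sets that passed a filter on low signals, for which one array had to reach its median and the other its 25th percentile. Passing probe sets that read one and the same gene had a pooled SD of 0.37 in log2 ratio (5531 genes), which was 0.48 among the dimmest genes and 0.26 among the brightest. These SDs hold no spread between cultures. Signals of different probe sets depend on their probes, so no level is compared between members.

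Of the 11 CPEB family probe sets, 10 passed the filter. One of them was lower by more than 2-fold, the probe set of Cpeb1, and 2 were higher by their ratio, one of Cpeb2 and one of Cpeb3. The Cpeb3 probe set was below the median of the siControl array and had a bound of only 1.09-fold. The count of higher probe sets was 1 with the median required in both arrays and 0 with 16 added to the signals. Over the whole array, with the filter above and nothing added, the shares past 2-fold were 4.54% lower and 4.10% higher. Counts over the array under the other settings are given in the closing section. The 3 Cpeb2 probe sets all had higher signals in siCPEB1, the 3 Cpeb4 probe sets all had lower signals, and the Cpeb3 probe sets lay above 0 on the log2 scale with values from 0.10 to 1.72.

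**Figure D1:**
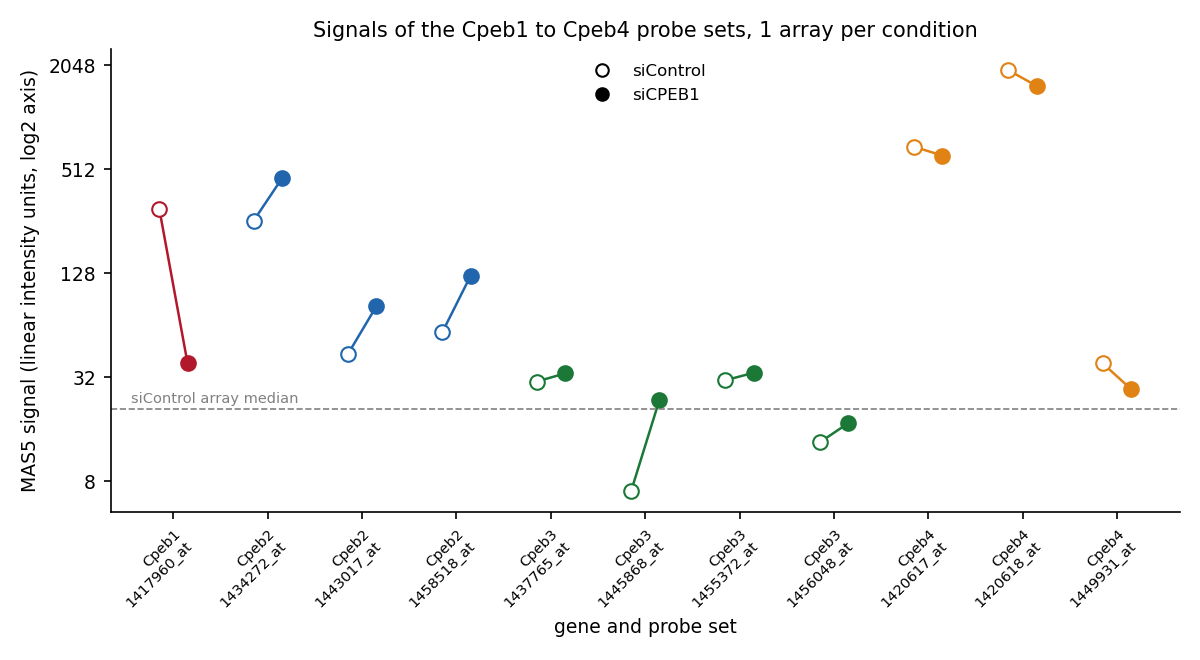
MAS5 signal (linear intensity, log2 axis) of each of the 11 probe sets of Cpeb1 to Cpeb4 on the siControl array (open circles) and the siCPEB1 array (filled circles), with a dashed line at the median of the siControl array. The signal of Cpeb1 goes from 302 to 38.5, the 3 lines of Cpeb2 slope upward, the 3 lines of Cpeb4 slope slightly downward, and the Cpeb3 probe sets lie near or below the array median.

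Cpeb1 encodes the target of the siRNA and lies on chromosome 7 of GRCm38 (81347026 to 81458001, minus strand). Its probe set, 1417960_at, had a signal of 302 in siControl and of 38.5 in siCPEB1. The log2 ratio was -3.01, so that the signal in siCPEB1 was 12.4% of that in siControl. Both signals were above the array median. How much of the siCPEB1 signal was background or cross-hybridization was not tested. By other assays, qPCR and western blot, the study reported lower Cpeb1 mRNA and protein in siCPEB1 cells. In RNA from a whole culture, fewer cells with Cpeb1 mRNA and less Cpeb1 mRNA per cell cannot be told apart. Among all passing probe sets, 7 had a lower log2 ratio than Cpeb1, and among 11554 genes represented by 1 probe set each, 3 did. The 5 genes nearest to Cpeb1 in log2 ratio over the 2 arrays were Acox2 (-2.85), Nxf7 (-2.63), Rhbdf2 (-2.60), Ero1a (-2.59) and Taf7l (-2.59), so the signal of Cpeb1 was among those that differed most between the arrays, with 3 genes below it. RefSeq lists 4 curated transcripts of Cpeb1, and which of them the probe set reads was not determined.

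Cpeb2 encodes a translational repressor that is known to slow elongation of the Hif1a mRNA through the elongation factor eEF2. The gene lies on chromosome 5 (43225349 to 43289724). At its brightest probe set, 1434272_at, the signal of 258 in siControl stood against 453 in siCPEB1 (1.71-fold higher). At 1443017_at it was 43.6 and 82.2, 1.83-fold higher. At 1458518_at it was 58.3 and 124, and this probe set was past 2-fold (2.07-fold higher). All 3 were above the median of both arrays. Their log2 ratios, from 0.77 to 1.05, had a mean of 0.90 with an SD of 0.14 over the 3 probe sets, which read 1 pair of cultures and are not replicates. The range of 0.27 was narrower than the median range of 0.44 among the 1440 genes that also had 3 passing probe sets. Of those genes, 2.78% had all 3 probe sets higher by more than 1.5-fold, as Cpeb2 had. All 3 were at or above the lowest value of Cpeb2 in 1.53%, a threshold taken from Cpeb2 itself. Both shares count Cpeb2 and were chosen after its values were seen, so they describe its place and are not a test.

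**Figure D2:**
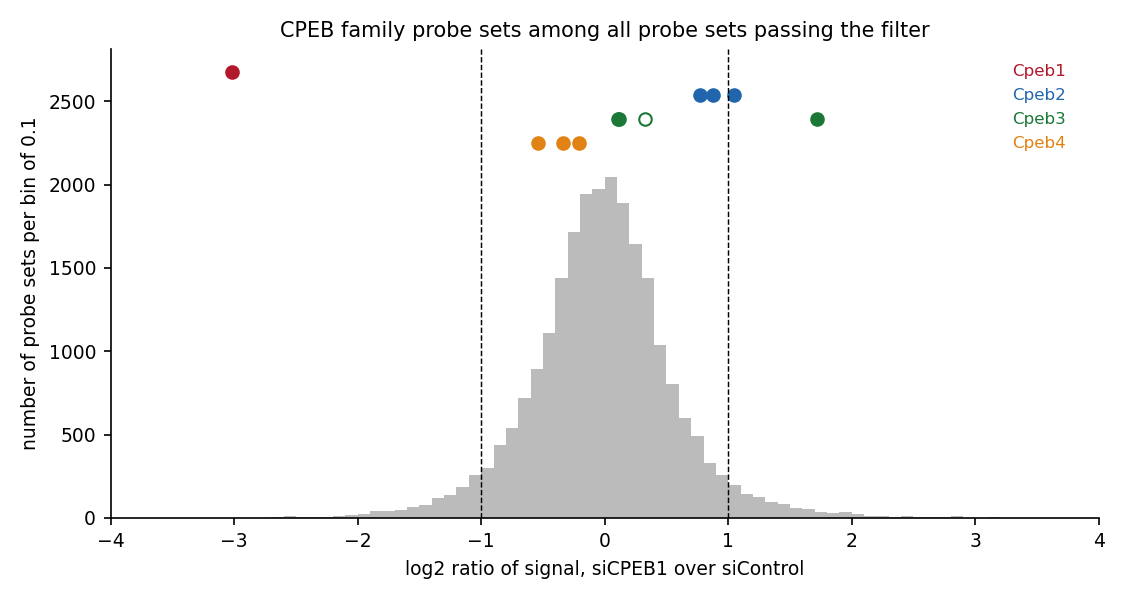
Number of passing probe sets in bins of 0.1 of the log2 ratio of siCPEB1 over siControl (grey bars), with the CPEB family probe sets as coloured points above (open circle for the 1 that did not pass) and dashed lines at 2-fold; the heights of the points have no meaning, and bars beyond the axis are not drawn. Cpeb1 lies far to the left at -3.01, the 3 Cpeb2 points gather around the upper dashed line, 1 Cpeb3 point, dim in siControl, lies at 1.72 apart from the others, and the Cpeb4 points lie between -0.54 and -0.21.

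Cpeb3 encodes a repressor of synaptic mRNAs such as those of glutamate receptor subunits, and it lies on chromosome 19 (37019341 to 37207620, minus strand). Its 4 probe sets were dim. At 1437765_at the signals were 30.2 and 33.6, and at 1455372_at they were 30.7 and 33.9, with log2 ratios of 0.12 and 0.10. Both differences are below the pooled spread between probe sets of a gene. At 1456048_at the signals were 13.4 and 17.3, below the median of both arrays, and this probe set did not pass the filter. At 1445868_at the signal went from 6.98 to 23.6, a log2 ratio of 1.72, and raising the siControl signal to the median of its array left a bound of at least 1.09-fold higher. This probe set passed the filter only through its siCPEB1 signal. A Cpeb3 difference of more than 2-fold rested on the dimmest siControl reading of the gene, and the brightest readings did not show one.

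Cpeb4 encodes the member that follows CPEB1 in meiosis, where CPEB1 activates translation of the Cpeb4 mRNA through its CPEs. The gene lies on chromosome 11 (31870104 to 31935635, plus strand). Its probe set 1420618_at had a signal of 1918 in siControl and of 1557 in siCPEB1, 1.27-fold lower. At 1420617_at the signals were 691 and 615, 1.15-fold lower. At 1449931_at they were 38.4 and 27.2, 1.45-fold lower. None was past 2-fold. The log2 ratios, from -0.54 to -0.21, were all below 0, which was so for 29.7% of the genes with 3 passing probe sets. All 3 above 0, as for Cpeb2, was so for 26.2%. These 2 shares were also chosen after the values were seen. The mean of the Cpeb4 log2 ratios was -0.36 with an SD of 0.17 over the 3 probe sets, which is no measure of the spread between cultures.

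**Figure D3:**
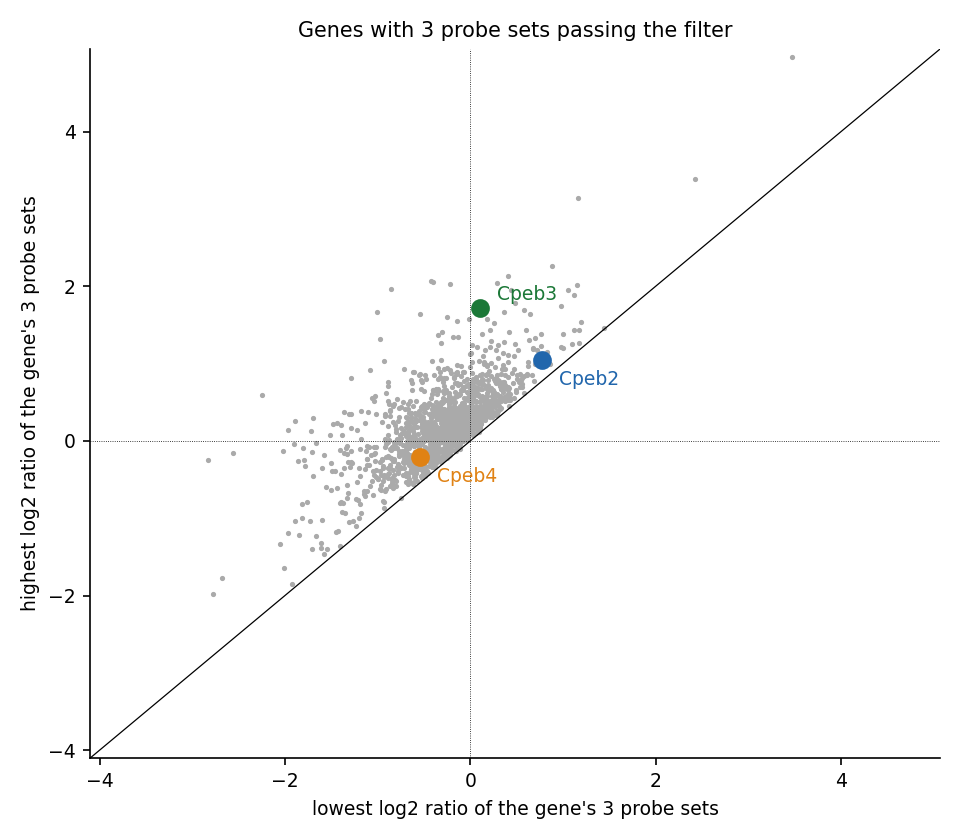
Lowest (x axis) and highest (y axis) log2 ratio of siCPEB1 over siControl among the 3 probe sets of each of 1440 genes with 3 passing probe sets (grey points), with Cpeb2, Cpeb3 and Cpeb4 in colour, the line of equal values and dotted lines at 0. Cpeb2 (0.77 and 1.05) lies close to the line in the upper right, Cpeb4 (-0.54 and -0.21) close to it below 0, and Cpeb3 (0.10 and 1.72) far above it through 1 probe set that was below the median in siControl.

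The other proteins through which CPEB proteins act were listed by role, and 1 probe set was taken for each gene. Of 70 listed partners, 58 were measured, of which 1 passed 2-fold upward and 3 downward (1.72% and 5.17%). Over all 11554 genes the shares were 4.54% higher and 3.89% lower. The median log2 ratio of the partners was -0.13, against 0.0049 over all genes. Both counts are near the shares over all genes, though the 3 lower genes all fell in 1 list, that named for the repressor complex. This list also held other RNA-binding regulators, among them Msi2 and Nanos1, so its count is not one of the complex alone. The 4 genes past 2-fold were Camk2b, Msi2, Lsm14a and Nanos1, of which Camk2b and Nanos1 were within 2-fold with 16 added to the signals, and Nanos1 also without scaling.

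The machinery that lengthens poly(A) tails held none of these. The representing probe sets of all 13 measured genes of cytoplasmic polyadenylation lay between -0.46 and 0.03. Tent2, the poly(A) polymerase GLD2 that CPEB1 recruits, had signals of 1007 and 1055 (log2 ratio 0.03). Parn, the deadenylase that keeps tails short in the same complex, had signals of 162 and 171 (0.03), the scaffold gene Sympk had 407 and 419 (0.0016), and Cpsf1, of the factor that binds the polyadenylation signal, had 582 and 604 (0.01). Other passing probe sets spread wider, with 0.66 for Tent2, -0.36 for Parn, 0.67 and 0.45 for Cpsf2, and values from -0.87 to 0.34 for Wdr33.

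Of 13 measured genes in the list named for the repressor complex, 3 were lower and 10 were within 2-fold (median -0.27). The list also held the RNA-binding regulators Msi1, Msi2, Nanos1, Dazl and Pum2. Over all genes, 3.89% were lower. No test was run on this count, and the list was chosen with earlier results known. The count of lower genes was 2 without scaling, 2 with 16 added, and 1 with the mean over the passing probe sets of a gene, where Lsm14a stood at -0.93. Msi2 encodes an RNA-binding protein of the Musashi family, whose members act with CPEB1 on maternal mRNAs. Its signal was 307 in siControl and 89.6 in siCPEB1, 3.53-fold lower, and its 6 passing probe sets had log2 ratios from -1.82 to -0.24, of which 3 were past 2-fold. Lsm14a, a component of P-bodies, went from 773 to 343, 2.32-fold lower, with -0.82 and -0.76 at its other passing probe sets. The related gene Lsm14b had signals of 446 and 360 (-0.35). Nanos1 went from 69.6 to 35.6, a log2 ratio of -1.01, which was -0.97 without scaling and -0.75 with 16 added, and its other probe set read -0.12. The eIF4E-binding repressor gene Eif4enif1 had signals of 619 and 714 (0.17), and Ddx6, an RNA helicase of P-bodies, had 500 and 735 (0.52), with 0.36 and 0.63 at its other passing probe sets.

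All 5 measured deadenylation partners were within 2-fold at the representing probe set (median -0.44). Tob1, whose protein links CPEB3 to the CCR4-NOT deadenylase, had signals of 1461 and 1104 (-0.44), and its other probe set read -0.93. Cnot6, a catalytic subunit of that deadenylase, had signals of 1749 and 943 (-0.93), while its other 3 probe sets read -1.26, -1.01 and -1.13. The 4 Cnot6 probe sets were thus all lower in siCPEB1 and lay on both sides of the 2-fold threshold. With the mean over its passing probe sets, Cnot6 was lower by more than 2-fold.

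Of 15 measured enzymes that modify CPEB proteins, 1 was higher by more than 2-fold, where 4.54% of all genes were. Camk2b, a subunit of the calcium-dependent kinase that phosphorylates CPEB1 at synapses, had signals of 23.2 and 50.4, 2.12-fold higher at its 1 probe set. The siControl signal was just above the array median of 21.0, and with 16 added the log2 ratio was 0.74. The subunit gene Camk2a, itself a CPEB1 target, had signals of 142 and 160 (0.13), with 0.47 and -0.35 at its other passing probe sets. Aurka, the kinase that activates CPEB1 in oocytes, had signals of 489 and 611 (0.28) at one probe set and a log2 ratio of -0.64 at the other. Neurl1a, whose protein ubiquitinates CPEB3, had signals of 281 and 273 (-0.08), and its other passing probe sets lay between -0.73 and -0.19. Capn2, a protease that cleaves CPEB3, had signals of 753 and 443 (-0.80).

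Membrane and granule partners, 12 in number, were all within 2-fold. The widest difference was that of Stau1, a double-stranded RNA-binding protein of transport granules, with signals of 269 and 471 (0.77), and of 1.12 and 0.79 at its other probe sets. Fmr1, also on the list of CPEB1 targets, had signals of 476 and 550 (0.17), with log2 ratios of 0.29 and -0.14 at its other probe sets. By other assays, qPCR and western blot, the study reported higher Fmr1 mRNA and protein in siCPEB1 cells.

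**Figure D4:**
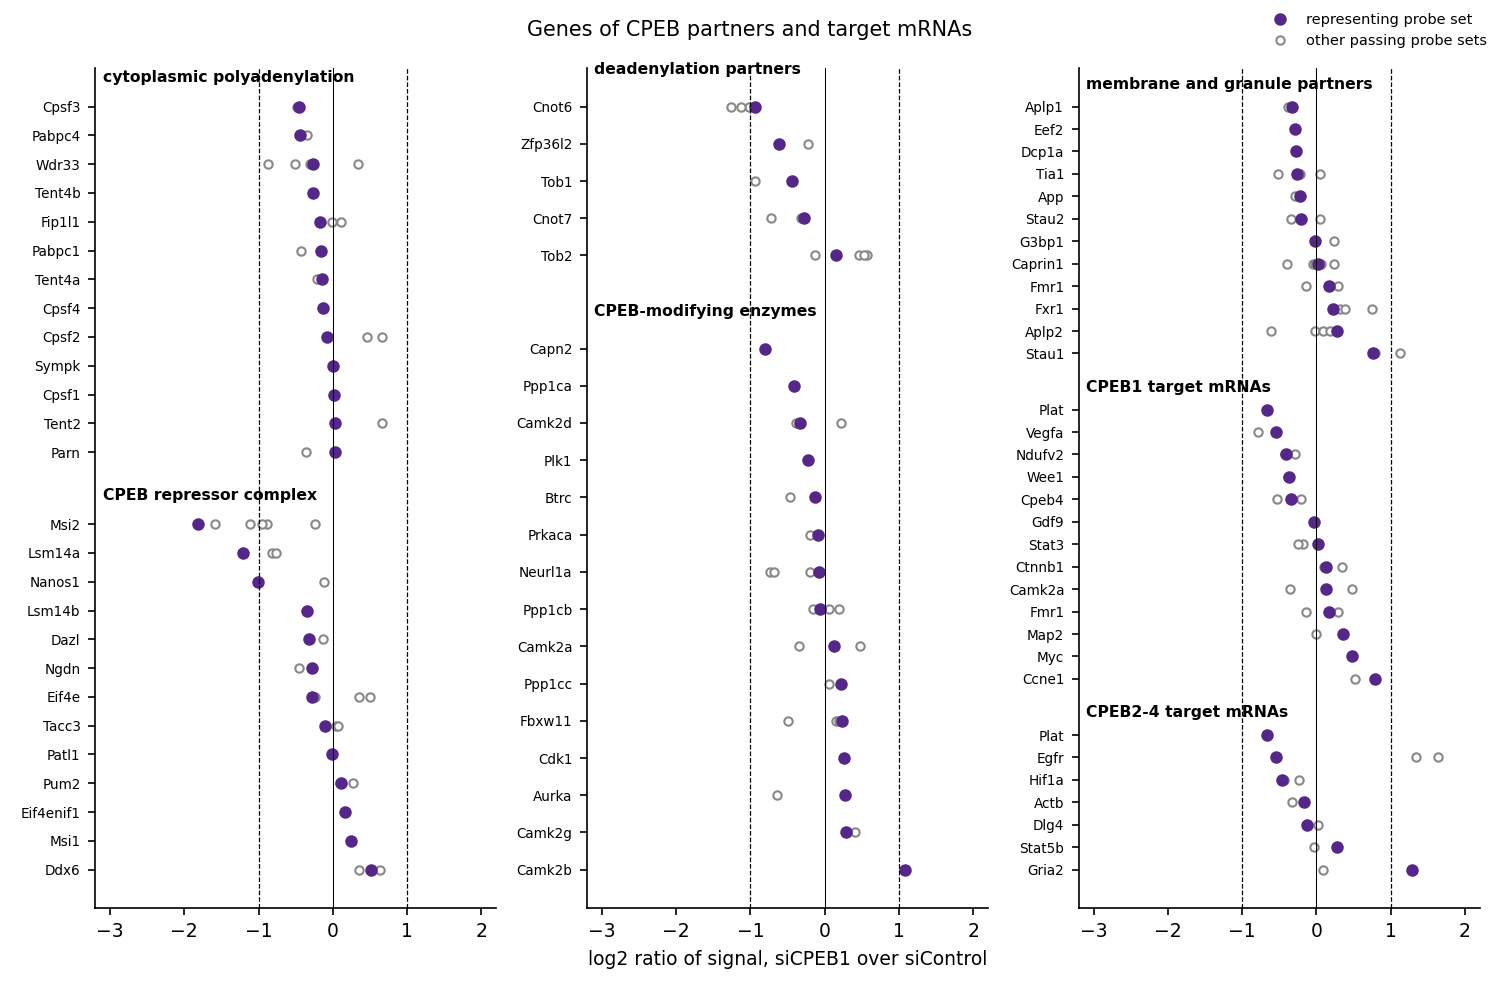
Log2 ratio (siCPEB1 over siControl) of the measured genes in the lists of CPEB partners and target mRNAs (purple, the probe set that represents the gene; open circles, its other passing probe sets), with dashed lines at 2-fold. Msi2, Lsm14a and Nanos1 lie below the lower line and Camk2b and Gria2 above the upper one, and the representing probe sets of cytoplasmic polyadenylation lie between -0.46 and 0.03.

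Known target mRNAs of the family were also read. Of 31 listed, 19 were measured, of which 1 was higher and none was lower by more than 2-fold, with a median log2 ratio of -0.03. Its sign changed with the scaling, from -0.03 to 0.05. Among targets of CPEB1, Myc had signals of 1282 and 1836 (0.48), Ccne1 of 247 and 437 (0.78), and Plat, which encodes tissue plasminogen activator, of 291 and 189 (-0.66). Cpeb4, Camk2a and Fmr1 belong to this list and are described above. Among targets of CPEB2 to CPEB4, Gria2, a glutamate receptor subunit gene, had signals of 30.8 and 77.0, 2.44-fold higher, but a log2 ratio of 0.08 at its other passing probe set, and the first stood at 0.97 with 16 added. Egfr had signals of 145 and 103 (-0.54), while its other passing probe sets, both below the median in siControl, read 1.64 and 1.34. Hif1a had signals of 3408 and 2553 (-0.46). The share of targets past 2-fold, 5.26% higher, is near the 4.54% over all genes, and translation was not measured.

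The identity of the cells and the scale were read from other genes. Of 11 markers of sympathetic neuroblasts on the array, 10 passed the filter and 1, Th, was below the median of both arrays. The 3 markers higher by more than 2-fold were Isl1, Gata3 and Phox2a, with log2 ratios of 2.17, 1.86 and 1.31, and the count was 5 without scaling, since Chgb (0.997) and Dbh (0.978) lay at the threshold. The median log2 ratio of the 10 was 0.95, against 0.0049 over all genes, and 8 lay above 0. Gata2 (-0.53) and Stmn2 (-0.34) lay below 0. The share of all genes higher was 4.54%. The summed signal of the list, with the brightest probe set of each gene, was 11408 in siControl and 15623 in siCPEB1. Of 5 glial, 7 fibroblast and 7 haematopoietic markers, 4, 5 and 5 lay below the median of both arrays. The summed signal of the fibroblast list was 98.3 and 396, where Col1a2 alone went from 42.3 to 309 while Col1a1, Col3a1, Dcn, Lum and Fap stayed below the median. The summed signals of the glial and haematopoietic lists were 105 and 124, and 84.1 and 119, and Tyrobp, of the last list, went from 9.62 to 22.8, at least 1.06-fold higher. The glial sum used the Mbp probe set at -0.13, while its other passing probe sets read 0.51, 0.94, 1.06 and 1.67. The passing probe sets of Csf1r, a haematopoietic marker, read 1.21 and 0.09. The part of these differences in the values of the CPEB family was not tested. Hprt, a housekeeping gene that served as the internal control of the study's qPCR, had signals of 2139 and 1720 (-0.35). The 4 measured reference genes lay between -0.35 and -0.09.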

How the data were processed

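RNA of 2 cultures, siControl and siCPEB1, was measured on 1 array each. The authors deposited MAS5 signals computed in Affymetrix Expression Console, per the labels, as linear intensity per probe set. MAS5 subtracts background and scales each array. The versions and the scaling target are not given in the sources used here, and the deposited values carry no detection flags. Grouping followed the treatment labels, and columns of other samples numbered 0.

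Symbols came from the platform annotation and were updated by gene identifier to the RefSeq names of GRCm38. Of 45037 probe sets, 34945 had 1 symbol, 932 had several and 9160 had none listed, and 64 control probe sets were left out. No member was matched through an older name, and no probe set paired a member with another gene. For a listed gene, the brightest passing probe set was used, by preference not _x_at or _s_at. Named were all members, listed genes past 2-fold, a preset group of partners, the widest differences of a list, Hprt, and the 5 genes nearest to Cpeb1. The members and lists were chosen with earlier results of these data known. The bound sets a signal below the array median at the median.

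Results were recomputed under 4 further scalings (75th percentile, quantile, loess of span 0.3, or none), with 16 added to the signals, under 3 further filters, at a 1.5-fold threshold, with the mean over the passing probe sets of a gene, and without _x_at and _s_at probe sets. The calculation was tested on simulated data. A planned comparison of the CPEB proteins was not made because no protein sequences were used here. Python 3.11.15 was used with numpy 2.4.6, pandas 2.3.3, statsmodels 0.14.6 and matplotlib 3.10.9. Precision is limited by having 1 array for each condition.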

Additional observations from a re-analysis of the deposited data

How the results depend on the processing

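Across the 5 scalings, the log2 ratio of Cpeb1 lay between -3.02 and -2.97, those of the Cpeb2 probe sets between 0.77 and 1.09, and those of the Cpeb4 probe sets between -0.54 and -0.15, and no CPEB family probe set changed sign or its side of 2-fold. With 16 added to both signals, Cpeb1 stood at -2.57 and the dim Cpeb3 probe set at 0.76, no CPEB family probe set was more than 2-fold higher (0, against 2), no partner and no target was (0 and 0), with Camk2b at 0.74 and Gria2 at 0.97, 2 partners were lower in place of 3, with Nanos1 at -0.75, and 420 probe sets of the array were higher and 489 lower. Without scaling, Nanos1 stood at -0.97, which left 2 partners lower, and 5 sympathetic neuroblast markers were higher in place of 3. With the median required in both arrays, 1 CPEB family probe set was higher, the array had 487 higher and 670 lower, and the median of the haematopoietic list was 0.086. With no filter, 6166 and 5586 probe sets were past 2-fold, 2 targets were higher and 2 lower, and the medians of the fibroblast and haematopoietic lists were 0.57 and 0.19. Filters change how many probe sets and genes are counted. Shares over all genes under the other settings are not given, so no result about the lists is read from these counts. With the filter used above, these 2 medians were 1.70 and 0.65, over only 2 measured genes each. At 1.5-fold, the 3 Cpeb2 probe sets were higher, and so was the Cpeb3 probe set that was dim in siControl, with its bound of 1.09-fold. Of the 1440 genes with 3 passing probe sets, 2.78% had all 3 higher by more than 1.5-fold. The share of all single probe sets past 1.5-fold was not computed, so no result is read from these 4. When a gene was given the mean over its passing probe sets, no target was higher (0) and 2 partners were lower, Msi2 at -1.10 and Cnot6. Lsm14a, Nanos1, Gria2 and Aurka then stood at -0.93, -0.57, 0.68 and -0.18. The 16 is large beside signals near the median of 21.0. Cpeb2 at 1458518_at (58.3 and 124) and Nanos1 (69.6 and 35.6) were brighter than that and lay close to 2-fold, and they also fell within it. The cause of the shifts under the other settings was not tested. No paired analysis was possible because each condition has 1 array. With 1 array per condition, none could be left out. Signals near the array median limit what can be read for Cpeb3.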
